A study of Mus musculus with 2 samples.

Results

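The nuclear-encoded subunit genes of respiratory complex I were followed in single-nucleus RNA sequencing of the colon of Pink1 knockout and wild-type mice. The genes were taken by name: of 47 symbols that start with Nduf among the 32285 features, 8 assembly factors (Ndufaf), 1 symbol ending in -ps and 1 gene with fewer than 20 UMIs (unique molecules counted) over both libraries were left out, which gave 37 genes. The rule uses names and total counts and no difference between the libraries, although earlier results of these data were known when it was set. The wild-type group was 3 male C57BL/6 mice of 15 weeks, and the knockout group 3 male Pink1 knockout C57BL/6 mice of the same age. Nuclei of the 3 mice of a genotype were sorted on a DNA stain, pooled and run as 1 library with 10x Genomics 3' tags. The PINK1 kinase flags damaged mitochondria so that they are cleared, and the labels name no cell type or tissue limit for the knockout. With 1 library per genotype there is no replicate, and genotype, library and the labelled batch (1 for the wild type and 2 for the knockout library) cannot be told apart.

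Complex I is the entry point of the respiratory chain: it takes electrons from NADH, passes them to ubiquinone and pumps protons across the inner mitochondrial membrane. Its matrix arm holds the NADH dehydrogenase part (N) and the ubiquinone-reducing part (Q), and its membrane arm is built around subunits encoded by mitochondrial DNA. The other subunits are encoded in the nucleus, and the accessory ones surround the catalytic core. In the colon, the mature absorptive epithelium is known for oxidising butyrate in its mitochondria. Transcripts of nuclear genes can be counted in nuclei, whereas mitochondrial transcripts in a nucleus library come from outside the nucleus.

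The libraries held 8924 wild-type and 12230 knockout barcodes with 16997995 and 22446326 UMIs, of which 8256 and 10966 nuclei were kept, with medians of 1624.5 and 1571 UMIs. Levels are given in CPM, counts scaled to the same total of UMIs from nuclear-encoded genes. A ratio divides the knockout by the wild-type library. Parentheses hold exact 95% intervals that cover counting error only. The mitochondrial share of UMIs in the kept nuclei was 0.270% in the wild-type and 0.525% in the knockout library. Pink1 itself had 171 and 113 counts, or 11.3 and 6.1 CPM. Its ratio was 0.537 (0.420 to 0.686). Since the deleted part is not named in the labels, these 3' tags check the label only in part.

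Over all nuclei, the 37 genes together took 18713 wild-type and 25070 knockout counts, 1241 and 1352 CPM, a ratio of 1.09 (1.07 to 1.11). The ratio was above 1 for 29 of the 37 genes, against 46.6% of the 14619 genes with at least 50 counts, and the median log2 ratio was 0.21 for the subunits and -0.02 for all those genes. Most single differences were small. Only Ndufs7 and Ndufa5 were at least 1.5-fold higher in the knockout library, 2 of 37 genes where 5.24% of all genes were, and 0 of 37 were at least 1.5-fold lower where 5.81% of all genes were. The summed difference depended on which nuclei were used. It was 1.01 (0.985 to 1.03) in nuclei that passed a stricter filter (at least 1000 UMIs and 600 genes, at most 2% mitochondrial UMIs) and 1.02 (0.969 to 1.08) in nuclei without a mitochondrial UMI, of which the libraries held 2131 and 1061. Ndufs7, Ndufa5, Ndufb2 and Ndufab1, described next, kept their side of 1 in those nuclei and in all 9 alternative settings that can move a ratio over all nuclei. Of the 37 genes, 17 crossed 1 in at least 1 of those settings, and for 12 of these the reported interval already held 1.

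**Figure D1:**
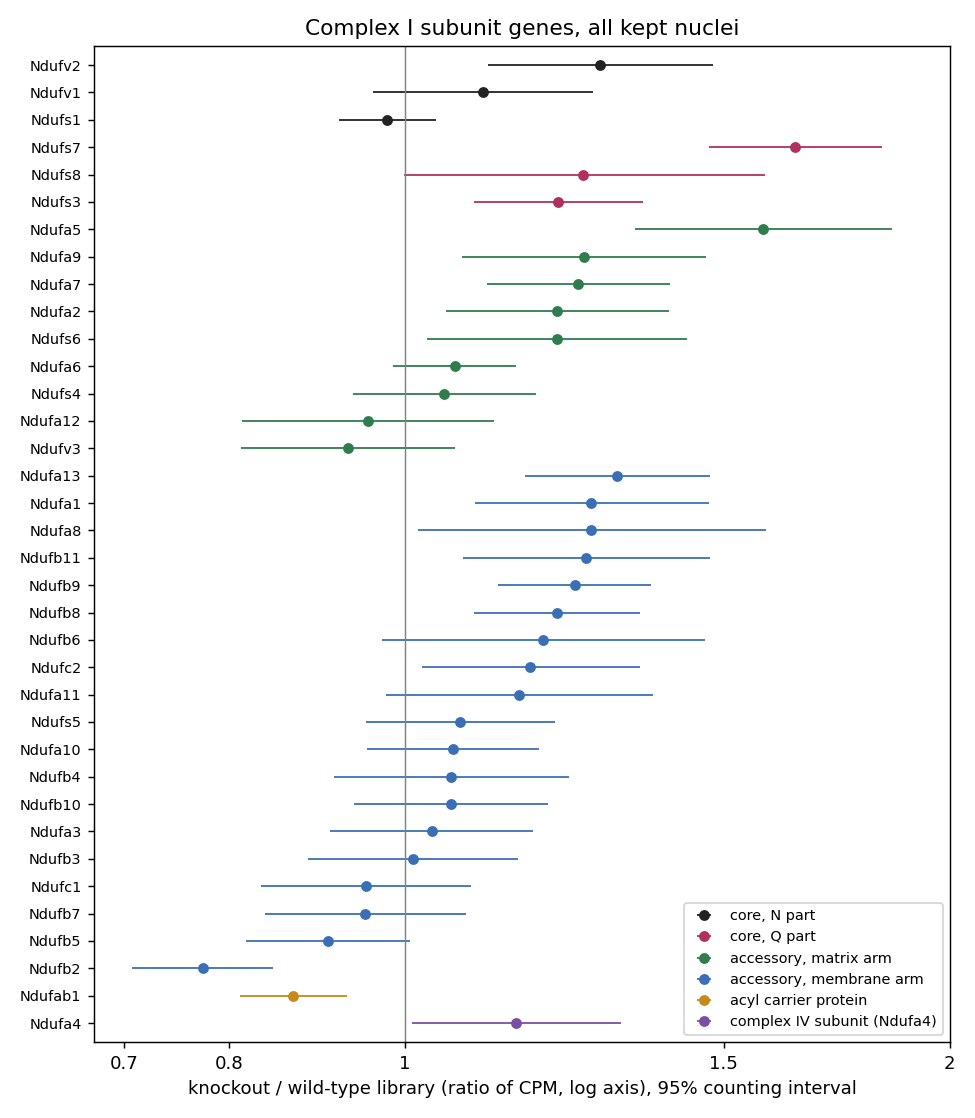
Ratio of CPM between the knockout and the wild-type library (horizontal log axis) for 36 of the 37 genes over all kept nuclei, coloured by role, with 95% counting intervals. Points run from 0.773 for Ndufb2 to 1.64 for Ndufs7, and the genes of the Q part lie above 1.

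The core Q part, which carries electrons to ubiquinone, held the gene with the highest ratio. Its 4 genes took 1876 and 3153 counts, a ratio of 1.37 (1.29 to 1.45), and each lay above 1. Ndufs7 (ENSMUSG00000020153; GRCm38 chromosome 10, 80249121 to 80256794, plus strand), which binds the last iron-sulfur cluster before ubiquinone, had 492 wild-type and 994 knockout counts, 32.6 and 53.6 CPM. Its ratio was 1.64 (1.47 to 1.83), the highest of the 37. No single nucleus held more than 0.610% of its counts in the wild-type or 0.302% in the knockout library. Under the alternative settings the Ndufs7 ratio ranged from 1.49, with nuclei thinned to 500 UMIs, to 1.70 in nuclei without a mitochondrial UMI.

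Ndufs3, a scaffold subunit of the Q part, stood at 1.22 (1.09 to 1.35), and Ndufs8, another iron-sulfur subunit, at 1.26 (0.999 to 1.58) from only 127 and 196 counts. Leaving out Ndufs7, the Q part summed to 1.27 (1.19 to 1.36).

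The core N part, where NADH is oxidised, was close to 1 as a whole, at 1.03 (0.981 to 1.09) from 2534 and 3222 counts. Ndufs1, its largest subunit and the gene with most counts of the 37, had 1860 and 2237 counts, 123 and 121 CPM, a ratio of 0.978 (0.919 to 1.04). Ndufv1, the flavin-binding subunit, had 23.5 and 26.0 CPM, and its interval held 1 (0.961 to 1.27). Ndufv2 had 319 and 503 counts and a ratio of 1.28 (1.11 to 1.48), but 0.989 with nuclei thinned to 500 UMIs. The summed ratios of the N and Q parts, both in the matrix arm, thus differed in these libraries, and that difference has no replicate behind it. Ndufs1 gave 1860 of the 2534 wild-type counts of the N part, so the N sum rests mostly on 1 gene. The N part was not summed without it. By gene, the median log2 ratio was 0.14 in the N part and 0.36 in the Q part.

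Among the 9 accessory genes of the matrix arm the summed ratio was 1.13 (1.08 to 1.18). Above 1 were 7 of 9, where 46.6% of all genes were. Ndufa5 (ENSMUSG00000023089; chromosome 6, 24518666 to 24528013, minus strand), an accessory subunit on the matrix arm, had 227 and 440 counts, 15.1 and 23.7 CPM. Its ratio was 1.58 (1.34 to 1.86), and 1.36 with the stricter filter. Ndufa9, a subunit that binds NADPH near the Q part, stood at 1.26 (1.08 to 1.47), and Ndufa7 at 1.25 (1.11 to 1.40). Ndufs4 and Ndufs6, accessory subunits at the N part, stood at 1.05 (0.937 to 1.18) and 1.21 (1.03 to 1.43), the latter 0.855 with thinned nuclei. Ndufa12 and Ndufv3 were the 2 below 1, at 0.954 (0.813 to 1.12) and 0.931 (0.812 to 1.07).

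The 19 accessory genes of the membrane arm held the gene with the lowest ratio. Together they stood at 1.07 (1.04 to 1.10), with 15 of 19 above 1 where 46.6% of all genes were. Ndufb2 (ENSMUSG00000002416; chromosome 6, 39592574 to 39603382, plus strand) had 1002 wild-type and 953 knockout counts although the knockout library was deeper. Its level was 66.5 and 51.4 CPM, a ratio of 0.773 (0.707 to 0.846), and it stayed between 0.737 and 0.829 in the alternative settings. At the other end, Ndufa13 (ENSMUSG00000036199; chromosome 8, 69894180 to 69902558, minus strand), also known as GRIM-19, had 460 and 741 counts and a ratio of 1.31 (1.16 to 1.47). The annotated gene Yjefn3 spans all of Ndufa13 on the same strand, which makes that value uncertain, although Yjefn3 had only 18 and 22 counts. Ndufb9 stood at 1.24 (1.13 to 1.37), and at 0.812 in nuclei without a mitochondrial UMI. Ndufb5, Ndufb7 and Ndufc1 lay below 1 at 0.907, 0.951 and 0.952, and the interval of each held 1.

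Ndufab1 (ENSMUSG00000030869; chromosome 7, 122085403 to 122101886, minus strand) encodes the mitochondrial acyl carrier protein, which serves lipoic acid and iron-sulfur cluster synthesis besides sitting in complex I. It had 1623 and 1732 counts, 108 and 93.4 CPM, a ratio of 0.868 (0.811 to 0.929). Ndufa4 carries a complex I name but its protein is a subunit of complex IV. It stood at 1.15 (1.01 to 1.32) from 386 and 547 counts, and at 0.983 with the stricter filter. Its paralogue Ndufa4l2 had 9 UMIs in all and was left out by the rule. Ndufb1-ps, also left out by the rule, had 253 and 306 counts and a ratio of 0.984 (0.830 to 1.17).

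The start regions of the genes were searched for 3 motifs of factors known to bind nuclear genes for mitochondrial proteins. RefSeq promoter windows of GRCm38.p6, 250 bases before to 50 bases after the start, were matched for 33 of 37 genes. Both strands were searched. The YY1 motif AGATGGC was in 8 of 33 windows (24.2%) and in 7.31% of all 27025 gene windows. The NRF1 core GCATGCG was in 3 (9.09%) and in 4.01% of all, and the ETS-family motif CCGGAAG in 4 (12.1%) and in 9.93% of all. A match is a description of the letters only. The pieces below are shown because they include the start of Ndufs7, the gene with the highest ratio, 3 others with the YY1 letters after the start, and the 3 genes with the NRF1 core. The YY1 letters began 23 to 39 bases after the RefSeq start in 7 of the 8 genes, and in Ndufab1 170 bases before it. Ndufa3 also held the letters on the other strand, 239 bases before its start. Of the 7 genes with the letters after the start, pieces are shown for the 4 whose window holds 11 bases on each side. The RefSeq start of Ndufs7 lies 328 bases after the annotated gene start given above. Capitals mark the motif, read 5′ to 3′ on the strand of the gene.
Ndufs7 (YY1, chr10:80249463-80249491, plus strand): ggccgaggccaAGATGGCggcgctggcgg
Ndufa9 (YY1, chr6:126849097-126849125, minus strand): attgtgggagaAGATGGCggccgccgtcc
Ndufc1 (YY1, chr3:51408915-51408943, minus strand): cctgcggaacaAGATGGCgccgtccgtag
Ndufa3 (YY1, chr7:3617385-3617413, plus strand): cgccaagaacaAGATGGCcgggagtaagt
Ndufa11 (NRF1 core, chr17:56717693-56717721, plus strand): ctgcactgcgcGCATGCGcgcacgccttg
Ndufa6 (NRF1 core, chr15:82354357-82354385, minus strand): tccgcggtagaGCATGCGcattgcagagc
Ndufa8 (NRF1 core, chr2:36049329-36049357, minus strand): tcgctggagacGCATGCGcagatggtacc
The 4 genes shown with the YY1 letters stood at 1.64, 1.26, 0.952 and 1.03, the other genes with these letters after the start, Ndufs6, Ndufs4 and Ndufb8, at 1.21, 1.05 and 1.21, and Ndufab1 at 0.868. The 3 with the NRF1 core stood at 1.16, 1.07 and 1.27, with overlapping intervals. The genes themselves lie on 15 chromosomes. Their lengths run from 2.23 kb for Ndufa2 to 100.5 kb for Ndufs4, with a median of 8.38 kb against 22.9 kb over the genes with at least 50 counts. Across the 37 genes the Spearman coefficient of length with the log2 ratio was -0.10, and that of total count with the log2 ratio -0.27. These are descriptions over genes that share the same 2 libraries.

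Nuclei were then grouped by clustering, with the 37 genes kept out of the variable genes, and groups with at least 100 nuclei in each library were compared. There were 7 groups named from markers: colonocyte-like (absorptive), crypt-base and proliferating-like, goblet-like (mucus-secreting), enteroendocrine-like (hormone-secreting), smooth muscle-like, fibroblast-like, and macrophage and dendritic-like. Their own markers were far above those of the other groups, for example 31350 and 35559 CPM of goblet markers in goblet-like nuclei against 847 and 823 CPM in colonocyte-like nuclei. A further 4 clusters met no class's marker rule and keep their numbers: cluster 5 (led by Gsdmc3 and Gk), cluster 6 (Apol10a, Reg3b and Hsd3b3), cluster 9 (Plet1, Car8 and Etv5) and cluster 12 (Mirg, Rian and Meg3). Clusters 9 and 12 carried goblet markers, at 22266 and 22155 CPM in the wild-type library, but Muc2 alone made 89.2% and 90.2% of these sums, against 38.1% in goblet-like nuclei. Cluster 6 carried colonocyte markers at 2018 CPM, against 6502 CPM in colonocyte-like nuclei.

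**Figure D2:**
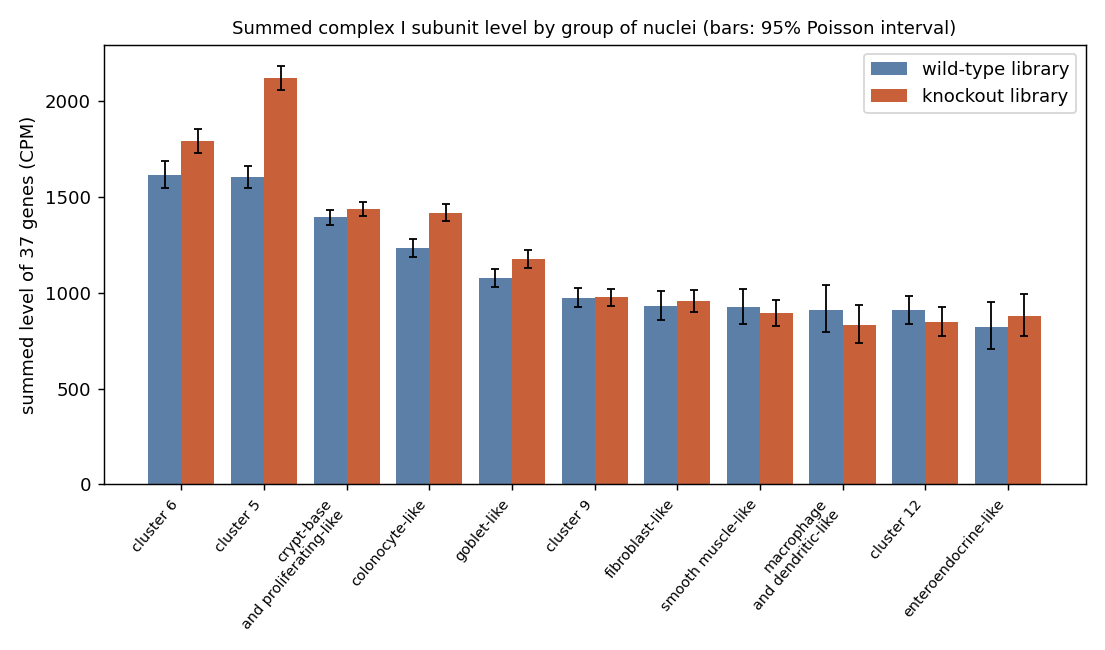
Summed CPM of the 37 genes (vertical axis) in each group of nuclei, with 1 bar for each library and 95% Poisson intervals. In both libraries clusters 5 and 6 are the highest, at 1603 and 1615 CPM in the wild-type and 2121 and 1791 CPM in the knockout library.

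Within the wild-type library the subunit genes were highest in clusters 6 and 5, at 1615 and 1603 CPM summed over the 37, and these 2 neighbours differed by less than their counting intervals. Crypt-base and proliferating-like nuclei followed at 1394 CPM (1355 to 1433), colonocyte-like nuclei at 1231 (1184 to 1280), goblet-like nuclei at 1076 (1031 to 1123) and cluster 9 at 975 (925 to 1026). Cluster 12, macrophage and dendritic-like, fibroblast-like and smooth muscle-like nuclei lay between 907 and 932 CPM, with overlapping intervals, and enteroendocrine-like nuclei were at 821 CPM (706 to 950). In the knockout library cluster 5 stood at 2121 CPM (2059 to 2185) and cluster 6 at 1791 (1727 to 1856), followed by crypt-base and proliferating-like (1436), colonocyte-like (1416), goblet-like (1176) and cluster 9 nuclei (976). The remaining 5 groups lay between 831 and 957 CPM. In the knockout library the intervals of crypt-base and proliferating-like (1398 to 1475) and colonocyte-like nuclei (1373 to 1460) overlapped, so the order of that pair was not resolved there. RNA outside nuclei can add to each group: Muc2, a goblet gene, was at 11958 CPM in goblet-like and at 527 CPM in colonocyte-like nuclei of the wild-type library.

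Gene by gene the levels followed the sum less closely, with 24 of 37 genes highest in cluster 5 or 6 in the wild-type and 33 of 37 in the knockout library. Set against fibroblast-like and smooth muscle-like nuclei together, clusters 5 and 6 together had the higher level of 36 of 37 genes in each library, with a median ratio of 1.87 in the wild-type and 2.15 in the knockout library. The interval lay above 1 for 22 of 37 genes in the wild-type and 33 of 37 in the knockout library. Of all genes with at least 50 counts in these nuclei, 64.2% and 61.5% were above 1, with medians of 1.23 and 1.20. Both sides were picked because the sum of the 37 genes was high in one and low in the other, so this is a description. Ndufb8 stood at 2.88 (1.84 to 4.71) in the wild-type and 2.71 (2.04 to 3.66) in the knockout library. Ndufa6, an accessory gene of the matrix arm, stood at 2.65 (1.91 to 3.74) and 3.61 (2.76 to 4.80).

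The exception was Ndufs5, a small accessory subunit on the intermembrane side of the membrane arm. It had 103 counts in clusters 5 and 6 and 58 in fibroblast-like and smooth muscle-like nuclei of the wild-type library, a ratio of 0.624 (0.448 to 0.877), and 0.758 (0.582 to 0.991) in the knockout library. Its highest group was smooth muscle-like (61.4 CPM) in the wild-type and enteroendocrine-like (76.4 CPM, 22 counts) in the knockout library. Over the 11 groups, the Spearman coefficient of Ndufs5 with the sum of the other 36 genes was -0.25 and -0.37, where the median of the 37 genes was 0.56 in the wild-type and 0.81 in the knockout library. These coefficients describe groups that come from the same library and differ in depth. Ndufa1, a membrane-arm subunit encoded on chromosome X, ran from 43.3 CPM in cluster 5 to 3.10 CPM (2 counts) in cluster 12 of the wild-type library.

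Between the libraries, the summed ratio of the 37 genes was above 1 in 8 of 11 groups and ran from 0.911 (0.760 to 1.09) in macrophage and dendritic-like nuclei to 1.32 (1.26 to 1.39) in cluster 5. Colonocyte-like nuclei stood at 1.15 (1.09 to 1.21), cluster 6 at 1.11 (1.05 to 1.17), goblet-like nuclei at 1.09 (1.03 to 1.16) and crypt-base and proliferating-like nuclei at 1.03 (0.991 to 1.07). The intervals of the other 6 groups held 1: enteroendocrine-like 1.07, fibroblast-like 1.03, cluster 9 1.00, smooth muscle-like 0.964, cluster 12 0.933 and macrophage and dendritic-like 0.911. Clusters 3, 4 and 17 form the colonocyte-like class in different shares, with cluster 4 giving 47.9% of the nuclei in the wild-type library and 25.4% in the knockout library. By cluster the ratio was 1.11 (1.02 to 1.22), 1.36 (1.26 to 1.47) and 0.918 (0.822 to 1.03), so the class value joins clusters on both sides of 1. Goblet-like nuclei joined cluster 8 at 1.03 (0.951 to 1.11) and cluster 11 at 1.25 (1.15 to 1.36). With the stricter filter the direction turned in colonocyte-like (0.984) and goblet-like nuclei (0.969), and cluster 5 stood at 1.08 (1.02 to 1.15).

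**Figure D3:**
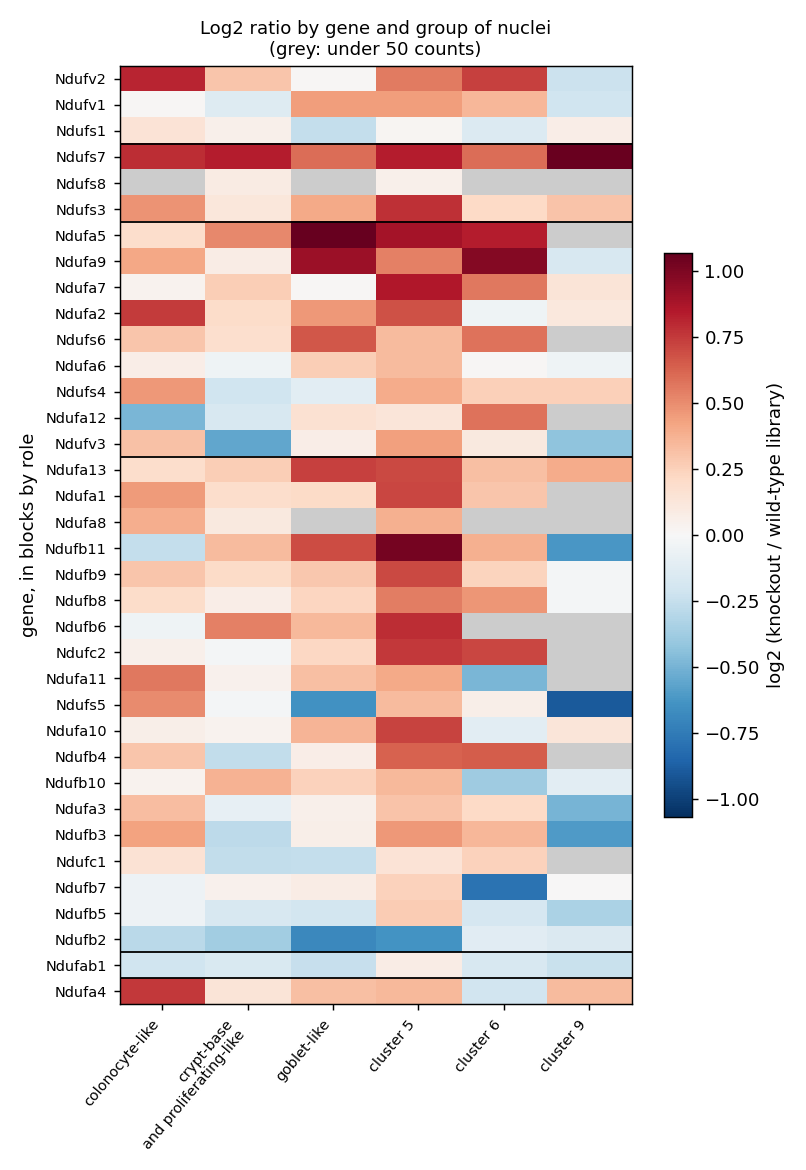
Log2 ratio of knockout over wild-type CPM (colour, red above 0 and blue below 0) for 36 genes (rows, in blocks by role) in the 6 epithelial groups with most counts (columns). Grey marks a gene with under 50 counts in that group; Ndufs7 is red in all 6 columns and Ndufb2 blue in all 6.

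Among the groups compared, cluster 5 held the highest summed ratio. Cluster 4 alone, inside the colonocyte-like class, stood at 1.36 (1.26 to 1.47), with an interval that overlapped that of cluster 5. In cluster 5, 13 of 37 genes were at least 1.5-fold higher in the knockout library where 6.99% of all genes were. There 1 was at least 1.5-fold lower where 6.17% were. The ratio was above 1 for 36 of 37, where 49.1% of all genes tested there were. The median log2 ratio was 0.44 against -0.01 over all genes tested there. Ndufb11, a membrane-arm subunit encoded on chromosome X, had 38 wild-type and 89 knockout counts, 21.1 and 43.1 CPM, a ratio of 2.04 (1.38 to 3.07). Ndufa7 was at 40.0 and 72.7 CPM, a ratio of 1.82 (1.36 to 2.44). Ndufb2 was the 1 gene below 1, at 153 and 113 counts, 85.0 and 54.7 CPM, a ratio of 0.644 (0.500 to 0.826). Summed by role, the Q part stood at 1.47, the accessory matrix-arm genes at 1.41, the accessory membrane-arm genes at 1.36 and the N part at 1.12 (0.977 to 1.29). By gene the roles lay closer, with median log2 ratios of 0.51, 0.44, 0.46 and 0.45 in that order.

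Mitochondrial transcripts moved with that shift. Their share of the UMIs of cluster 5 was 0.463% in the wild-type and 1.52% in the knockout library, and 4.24% of wild-type against 15.8% of knockout nuclei exceeded 2% mitochondrial UMIs. In the nuclei of cluster 5 with no mitochondrial UMI (233 and 96), the subunit genes stood at 1.06 (0.909 to 1.24), from 541 and 236 counts. Without cluster 5, the ratio over all nuclei was 1.05 (1.03 to 1.08). At a finer clustering the best-matching cluster stood at 1.07. The part of these transcripts in the shift was not tested beyond those values.

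In cluster 6, 9 of 34 genes with 50 counts were at least 1.5-fold higher where 6.53% of all genes were, and 1 was lower where 6.00% were. The ratio of Ndufa9 was 2.00 (1.24 to 3.31), from 25 and 66 counts. Ndufb7, a membrane-arm subunit facing the intermembrane space, stood at 0.578 (0.377 to 0.880), from 55 and 42 counts. Among goblet-like nuclei 6 of 35 genes were at least 1.5-fold higher (5.37% of all genes) and 2 at least 1.5-fold lower (8.17%). The higher ones were led by Ndufa5, with 16 and 38 counts and a ratio of 2.13 (1.16 to 4.09), and Ndufa9, at 1.90 (1.16 to 3.19). The 2 lower ones were Ndufb2, at 60.5 and 37.5 CPM and a ratio of 0.621 (0.463 to 0.828), and Ndufs5, at 0.637 (0.423 to 0.952). The subunit genes had lower median counts than all genes tested, 108 against 162 in cluster 6 and 106 against 183 in goblet-like nuclei. The shares over all genes were not matched on counts, here or in the other groups.

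Colonocyte-like nuclei had 4 of 36 genes at least 1.5-fold higher (5.96% of all genes) and 0 lower (9.25%). These were Ndufv2 at 1.76 (1.23 to 2.56), Ndufs7 at 1.73 (1.26 to 2.41), Ndufa4 at 1.70 and Ndufa2 at 1.69. Crypt-base and proliferating-like nuclei had 1 of 37 at least 1.5-fold higher (3.53%) and 0 lower (4.65%), the 1 being Ndufs7 with 114 and 220 counts, a ratio of 1.79 (1.42 to 2.26). At the low end stood Ndufb2 at 0.774 (0.651 to 0.919) and Ndufv3 at 0.681 (0.495 to 0.933), the latter an accessory subunit beside the flavin site. In cluster 9, 2 of 26 genes were at least 1.5-fold higher (5.79%) and 3 lower (6.25%). Ndufs7 stood at 2.09 (1.42 to 3.15), while Ndufs5 stood at 0.534 (0.308 to 0.912). The shares in crypt-base and proliferating-like nuclei were near or below the background.

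The 4 genes singled out over all nuclei were then read group by group, whose counts are parts of the same totals. Ndufs7 was at least 1.5-fold higher in all 6 groups where it had 50 counts, from 1.51 in cluster 6 to 2.09 in cluster 9, and above 1 in 10 of 11 groups. The other group was smooth muscle-like, with 15 and 17 counts. Ndufa5 was above 1 in 11 of 11 groups and from 1.14 to 2.13 in the 5 where it had 50 counts. Ndufb2 was below 1 in all 8 groups with 50 counts, from 0.621 to 0.920, and above 1 only in enteroendocrine-like nuclei, with 8 and 16 counts. Ndufab1 was below 1 in 8 of 11 groups, and in cluster 5 it stood at 1.06 (0.886 to 1.26). The Q part as a whole was above 1 in 9 of 11 groups, from 0.936 in macrophage and dendritic-like to 1.74 (1.29 to 2.36) in fibroblast-like nuclei. In the latter Ndufs1, of the N part, stood at 0.666 (0.449 to 0.990).

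**Figure D4:**
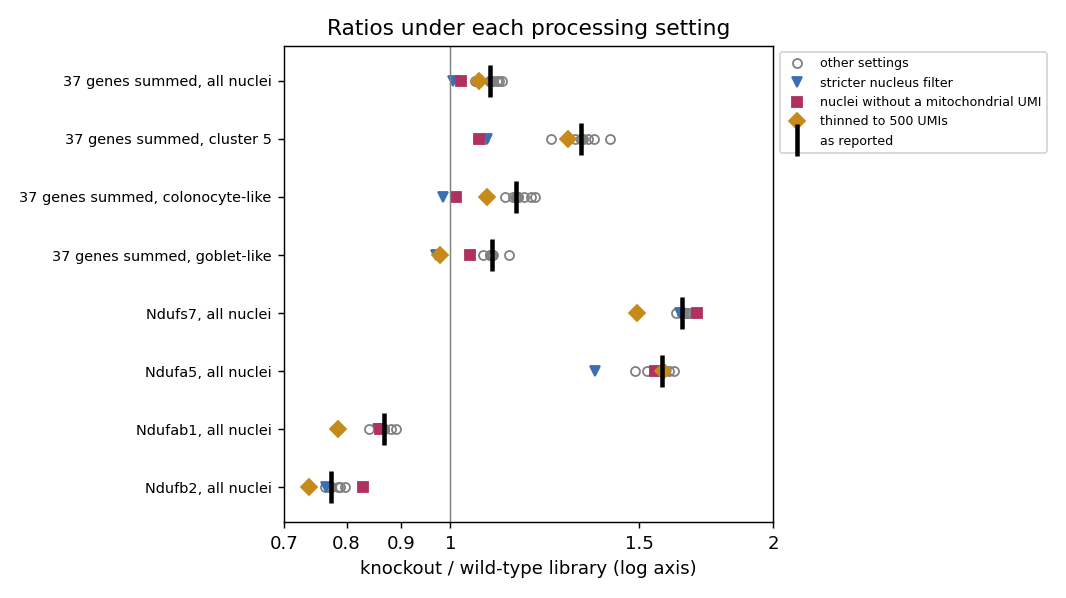
Ratio of knockout over wild-type library (log axis) for the 37 genes summed in 4 sets of nuclei and for 4 single genes, as reported (black bar) and under each alternative setting (symbols). The summed ratios move to or near 1 with the stricter filter, whereas Ndufs7 stays between 1.49 and 1.70 and Ndufb2 between 0.737 and 0.829.

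Other genes of the same organelle were set beside the subunits. The alternative settings were run on the nuclear subunit genes only, whose summed ratio over all nuclei was 1.01 with the stricter filter. Whether the ratios of the other lists, here and in the paragraphs below, depend on the nuclei used was not tested. The 7 complex I subunits encoded by mitochondrial DNA had 6764 wild-type and 16385 knockout counts, a ratio of 1.97 (1.91 to 2.03), and all 7 were at least 1.5-fold higher, where 5.24% of nuclear-encoded genes were. They ranged from 1.65 for mt-Nd3 to 2.22 (2.08 to 2.37) for mt-Nd2. The share of all mitochondrial UMIs was itself 0.270% in the wild-type and 0.525% in the knockout library. Mitochondrial transcripts of other complexes were not set beside these 7. The 39 nuclear genes of complexes II to V stood at 1.21 (1.20 to 1.23), with 34 of 39 above 1 where 46.6% of all genes were. At least 1.5-fold higher were 3 of 39, a share near the 5.24% of all genes. Those 3 were Sdhb, the iron-sulfur subunit of complex II, at 1.89 (1.61 to 2.23), Cox6a1 of complex IV at 1.63 and Uqcr11 of complex III at 1.59. Cytosolic ribosomal protein genes, whose mature mRNAs lie outside the nucleus, stood at 1.15 (1.14 to 1.16), and mitochondrial ribosomal protein genes at 0.993 (0.978 to 1.01). A list of 4 nuclear-retained RNAs stood at 1.06 (1.06 to 1.07), a sum made mostly of Malat1. By gene these 4 lay on both sides of 1: Malat1 at 1.06, Neat1 at 1.18, Meg3 at 0.706 and Kcnq1ot1 at 0.822.

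The 18 assembly factors, which build complex I but are not part of it, went the other way as a sum. Together they stood at 0.861 (0.834 to 0.888) over all nuclei, with a median log2 ratio of -0.20. The sum was below 1 in 11 of 11 groups, from 0.701 to 0.948. The interval held 1 in enteroendocrine-like, fibroblast-like and smooth muscle-like nuclei and in cluster 6. Over all nuclei 6 of 18 were above 1, where 46.6% of all genes were. Among the 6 were Ndufaf4 at 1.08 (1.01 to 1.15) and Ndufaf8 at 1.34 (1.09 to 1.65). Dmac1, an assembly factor of the distal membrane arm, had 116 and 73 counts, a ratio of 0.512 (0.377 to 0.692). Dmac2 stood at 0.672 (0.630 to 0.718) from 1997 and 1651 counts, and Tmem70 at 0.647 (0.532 to 0.786) from 240 and 191 counts. Dmac2 alone gave 1997 of the 7569 wild-type counts of the 18, and a sum without it was not taken. Dmac1 and Tmem70 were the 2 of 18 at least 1.5-fold lower, where 5.81% of all genes were. The 13 regulators of mitochondrial gene expression stood at 0.916 (0.898 to 0.935) together, but 6 of 13 were above 1, where 46.6% of all genes were. Their median log2 ratio was -0.008. Ppargc1a, the coactivator PGC-1alpha, was at 170 and 104 CPM, a ratio of 0.608 (0.573 to 0.646), while Esrra stood at 1.17 (1.12 to 1.23). Of the factors whose motifs were searched above, Yy1 stood at 1.07 (1.00 to 1.14) and Nrf1 at 0.924 (0.850 to 1.01). Gabpa, of the ETS family, stood at 0.786 (0.725 to 0.853). Gabpb1 and Gabpb2 stood on both sides of 1, at 1.17 (1.04 to 1.33) and 0.803 (0.772 to 0.835).

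**Figure D5:**
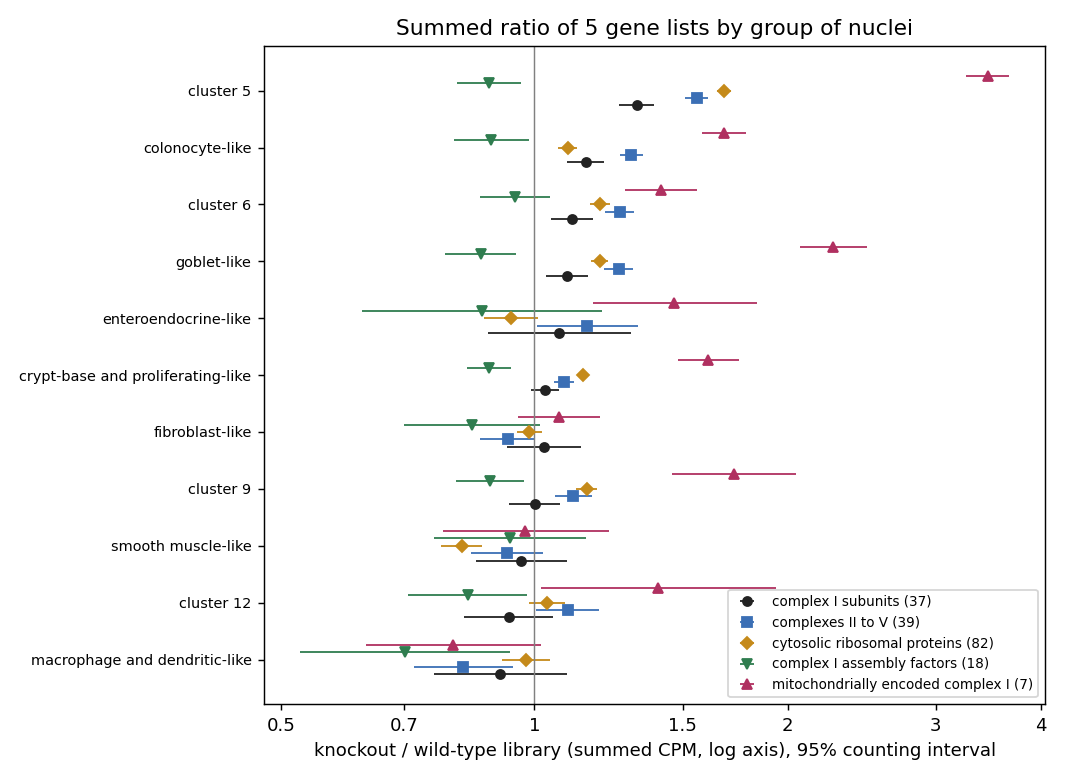
Summed ratio of knockout over wild-type CPM (horizontal log axis) in each group of nuclei for 5 gene lists, with 95% counting intervals. In cluster 5 the mitochondrially encoded subunits stand at 3.46, ribosomal proteins at 1.68, complexes II to V at 1.56 and the 37 nuclear subunits at 1.32. The assembly factors lie below 1 in every group, in some with an interval that holds 1.

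The other lists were read in the same groups. In cluster 5, where the 37 genes were at 1.32, the mitochondrially encoded subunits stood at 3.46 (3.26 to 3.67). The cytosolic ribosomal protein genes stood there at 1.68 (1.65 to 1.71) and complexes II to V at 1.56 (1.51 to 1.61). The assembly factors were at 0.884 (0.810 to 0.965) and the nuclear-retained RNAs at 1.03 (1.03 to 1.04). In smooth muscle-like nuclei, where the subunits were at 0.964, the mitochondrially encoded subunits stood at 0.975, the ribosomal protein genes at 0.820 and complexes II to V at 0.927. Elsewhere the lists parted: in cluster 9 the subunits were at 1.00 with the mitochondrially encoded subunits at 1.73 and the ribosomal protein genes at 1.15, and in cluster 12 at 0.933 with the mitochondrially encoded subunits at 1.40. In fibroblast-like nuclei the subunits were at 1.03 and complexes II to V at 0.929. The part of RNA from outside the nucleus in the ratio of the 37 genes was not tested.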

How the data were processed

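The values are whole-number UMI counts for each gene in each barcode, as the authors deposited them. Per the file headers they come from Cell Ranger 6.1.2. The submitters' processing notes name the builds mm10 and GRCm38. The sources used here do not say which annotation was counted, whether introns or strand were used, or whether doublets had been taken out. Barcodes with at least 500 UMIs, at least 300 genes and at most 10% mitochondrial UMIs were kept, and the highest Scrublet scores (0.8% per 1000 barcodes) removed as doublets: 632 wild-type and 1180 knockout. The libraries shared 28 barcodes. Counts scaled to 10000 and log-transformed were clustered with scanpy 1.11.5 (2000 variable genes without the 37 subunits, 30 components, 20 neighbours, Leiden resolution 1), which gave 27 clusters.

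The 37 genes, the lists and the markers were chosen with earlier results of these data known. A cluster was named from the markers if their mean log2 fold (5 CPM added) was at least 0.3, at least 3 were 2-fold up and the second class was 0.5 or more behind; these thresholds were set with the data seen. A name rebuilt this way may differ from the study's.

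Counts were summed per library and group and divided by nuclear-encoded UMIs. With 1 library per genotype no test was run and no p-value is given. Log2 ratios had 0.5 added to each count. Counts carry exact Poisson and ratios exact conditional binomial 95% intervals (scipy 1.17.1), whose code was tested on simulated data. Genes with at least 50 counts over both libraries entered counts past 1.5-fold. Coordinates came from GENCODE M21, matched for 32158 of 32285 identifiers. Named genes were those whose interval bound nearest to 1 was highest or lowest, over all nuclei and in each group, those that varied most between groups, and members of the lists. Some were named after their values were seen: Ndufs5 for its pattern over groups, and genes that complete a role. Of the 37 genes, 1 entered the sums, medians and counts but is not reported by itself here.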

Additional observations from a re-analysis of the deposited data

How the results depend on the processing

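The limits are those of 1 pooled library per genotype: intervals cover counting error, and clusters were rebuilt. In other clusterings, numbered clusters were matched by largest overlap; at resolution 2 cluster 5 matched with a Jaccard index of 0.381. No subunit was among the variable genes, so allowing them gave the same clusters, and subtracting 10% free RNA cannot move a ratio over all nuclei, nor can the Leiden resolution. Medians were given only with at least 10 measured genes. The alternative settings were run on the nuclear subunit genes and not on the lists set beside them. Leaving out nuclei with a mitochondrial UMI, leaving out cluster 5 and weighting the knockout clusters as in the wild type were chosen after seeing the data. Of the alternative values of a summed ratio, median or count, 249 moved by less than the counting interval or stayed within 1.5 times, 40 moved further and 5 changed side. The 249 include values that a setting cannot move, such as a summed ratio under another added count or minimum count. Those that moved further or changed side follow, and for each the cause was not tested. Of single genes, those that turned are named below where the reported interval excluded 1 (5 genes). Another 12 crossed 1 whose interval held it, from Ndufb4 at 0.581 to Ndufa12 at 1.41, both in nuclei without a mitochondrial UMI.

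With the stricter filter the summed ratio was 1.01 over all nuclei, 1.08 in cluster 5, 0.984 in colonocyte-like and 0.969 in goblet-like nuclei, the last 2 on the other side of 1. The median log2 ratios were 0.039, 0.12, -0.015 and -0.0041 in that order and 0.011 in crypt-base and proliferating-like nuclei, 1 gene was at least 1.5-fold higher, and Ndufa4 turned to 0.983. In nuclei without a mitochondrial UMI the sum was 1.02 over all, 1.06 in cluster 5 and 1.01 in colonocyte-like nuclei, and the median 0.12 over all and 0.011 in crypt-base and proliferating-like nuclei. There 1 gene was at least 1.5-fold lower, and Ndufb9 (0.812) and Ndufb8 (0.979) turned. With nuclei thinned to 500 UMIs the sum was 1.06 over all, 0.979 in goblet-like nuclei, 1.08 in colonocyte-like, 1.07 in crypt-base and proliferating-like, 1.11 in cluster 9, 1.18 in smooth muscle-like and 0.803 in cluster 12 nuclei. The median was then 0.16 over all and 0.012 in cluster 6, and Ndufs6 (0.855) and Ndufv2 (0.989) turned.

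With the looser filter the sum was 1.12 over all and 1.41 in cluster 5, and the medians were 0.24 over all, 0.57 in cluster 5, 0.35 in colonocyte-like nuclei and 0.12 in cluster 6. Without cluster 5 the sum was 1.05 and the median 0.15. Without doublet removal the medians were 0.17 over all, 0.53 in cluster 5 and 0.064 in cluster 9, with 1 gene at least 1.5-fold higher. The median over all was 0.24 with Scrublet's own threshold and 0.25 with clusters weighted as in the wild type. At resolution 2 the sum was 1.07 in cluster 5 and 1.22 in cluster 6, with medians of 0.15 in cluster 5 and 0.11 in cluster 9. At resolution 0.5 the sum was 1.24 in cluster 5 and the median 0.15 in cluster 6.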
